A study of Mus musculus with 8 samples.

Results

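Kinesins are motor proteins that use ATP to move along microtubules. Among the tested genes of this family, most of the mitotic class were called higher in carcinogen-induced tongue tumours. The transport class, with a single exception, was not called, and neither were the 9 tested members outside both classes. Members were the rows of the authors' deposited table whose gene symbol is Kif followed by a digit. The rule found 38 of the 23235 genes listed, among them the pseudogene Kif4-ps. The classes were set by the textbook role of each motor: 12 mitotic kinesins, 13 transport kinesins, 7 kinesins of the cilium and of ciliary signalling, and 6 others. The authors' comparison tested 33 members, and 5 carried the status NOTEST.

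Poly(A) RNA was sequenced from 3 tongue squamous cell carcinomas of mice given 4-nitroquinoline 1-oxide (4-NQO), a carcinogen that forms bulky DNA adducts, and from 5 tongues of mice that had not received it. All 8 samples came from female C57BL/6 mice, and the labels give no ages. The deposited table holds 1 value per gene and group in FPKM (fragment counts scaled to transcript length and to sequencing depth), so neither the spread between samples nor the depth of any sample can be seen, and no SD can be given. Each ± below is a standard error on the log2 scale, for the fold change of tumour over normal tongue, derived from the deposited test statistic, and a gene was called where its deposited q-value was under 0.05. Nothing in the labels says that the samples were separate animals, so the p-values behind these calls may measure technical spread only.

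In a dividing cell, mitotic kinesins build the spindle, move and align chromosomes, shorten microtubule ends and complete cytokinesis, and their transcripts are made mainly in late cell cycle phases. Transport kinesins carry vesicles, organelles and protein complexes outwards along microtubules and are best known from axons, cilia and muscle fibres. Genes of late cell cycle phases often carry a cell cycle homology region near their start, the letters TTTGAA, which is bound by the DREAM and MMB-FOXM1 complexes, and CCAAT boxes, which are bound by NF-Y. The normal tongue is mostly skeletal muscle under a stratified epithelium whose basal layer divides.

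The promoters of the called mitotic kinesins are shown because these genes moved together. Sequences are RefSeq's on build GRCm38.p6, from 250 bases before to 50 bases after each annotated start, read along the gene. Capitals mark TTTGAA or CCAAT on either strand (TTCAAA and ATTGG are their reverse complements). The 4 whole windows belong to the called members with the largest fold changes among those that hold a TTTGAA match. They lie at chr11:102925075-102925374 (Kif18b, minus strand), chr4:117178723-117179022 (Kif2c, minus strand), chr7:127042371-127042670 (Kif22, minus strand) and chr19:34922108-34922407 (Kif20b, plus strand).
Kif18b: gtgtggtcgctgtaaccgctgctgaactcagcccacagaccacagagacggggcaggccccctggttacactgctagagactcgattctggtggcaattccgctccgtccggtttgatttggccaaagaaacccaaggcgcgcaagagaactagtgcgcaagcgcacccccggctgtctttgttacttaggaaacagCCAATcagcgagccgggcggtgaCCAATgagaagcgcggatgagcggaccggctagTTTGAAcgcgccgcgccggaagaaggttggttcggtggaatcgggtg
Kif2c: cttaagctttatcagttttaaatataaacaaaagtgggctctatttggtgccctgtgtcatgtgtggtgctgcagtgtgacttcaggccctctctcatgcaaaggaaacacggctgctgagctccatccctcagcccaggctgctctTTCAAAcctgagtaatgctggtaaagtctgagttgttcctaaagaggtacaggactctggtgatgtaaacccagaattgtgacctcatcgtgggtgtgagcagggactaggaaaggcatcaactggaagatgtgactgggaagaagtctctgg
Kif22: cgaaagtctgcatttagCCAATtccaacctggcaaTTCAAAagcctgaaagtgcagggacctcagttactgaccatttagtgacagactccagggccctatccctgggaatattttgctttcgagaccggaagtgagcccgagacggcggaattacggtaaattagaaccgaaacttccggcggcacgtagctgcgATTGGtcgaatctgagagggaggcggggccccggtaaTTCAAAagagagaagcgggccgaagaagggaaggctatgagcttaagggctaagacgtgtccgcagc
Kif20b: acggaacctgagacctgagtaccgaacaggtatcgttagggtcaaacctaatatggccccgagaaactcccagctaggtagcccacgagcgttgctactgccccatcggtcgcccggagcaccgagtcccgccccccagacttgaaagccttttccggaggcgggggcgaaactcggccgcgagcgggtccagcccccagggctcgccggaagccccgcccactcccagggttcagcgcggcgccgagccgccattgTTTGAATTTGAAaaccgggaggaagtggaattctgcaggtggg

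For the remaining 5 called mitotic members, the 30 bases around the TTTGAA match nearest the start are given, with that match alone in capitals. They lie at chr1:136467608-136467637 (Kif14, plus strand), chrX:100626072-100626101 (Kif4, plus strand), chr9:122951050-122951079 (Kif15, plus strand), chr19:37376351-37376380 (Kif11, plus strand) and chr9:61946780-61946809 (Kif23, minus strand).
Kif14: ggaggtcctgtcTTTGAAgtctgcagtgtc
Kif4: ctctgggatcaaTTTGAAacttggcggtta
Kif15: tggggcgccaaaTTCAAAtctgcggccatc
Kif11: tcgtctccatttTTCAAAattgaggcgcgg
Kif23: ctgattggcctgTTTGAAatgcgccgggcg

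A TTTGAA match, in either orientation, stood in this window in 9 of the 11 mitotic kinesins with a promoter entry, in 1 of the 10 transport kinesins and in 2 of the 10 other kinesins. The 9 are the called mitotic members, while Kif18a and Kif2b held none, and the 2 others are Kif26b and Kif27, which were not called. The match occurs in 14.8% of the tested genes with an entry and in 17.9% of all 32851 promoters in the reference table. In 7 of the 9 the match lay within 50 bases of the annotated start, a distance set after the positions were seen, where 3.84% of tested genes hold one. In Kif18b and Kif23 it begins at base 4 and base 3 of the transcript, and in Kif20b a pair of matches runs end to end from base 8. Kif14 and Kif2c held it farther out, at 228 and 103 bases before the start. CCAAT letters stood in 7 of the 11 mitotic kinesins, 3 of the 10 transport kinesins, 4 of the 10 others and 42.3% of tested genes. The 1 transport kinesin with a TTTGAA match was Kif1a, at 1 of its 2 annotated starts, and the promoter of the called transport member Kif17 held neither motif.

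**Figure D1:**
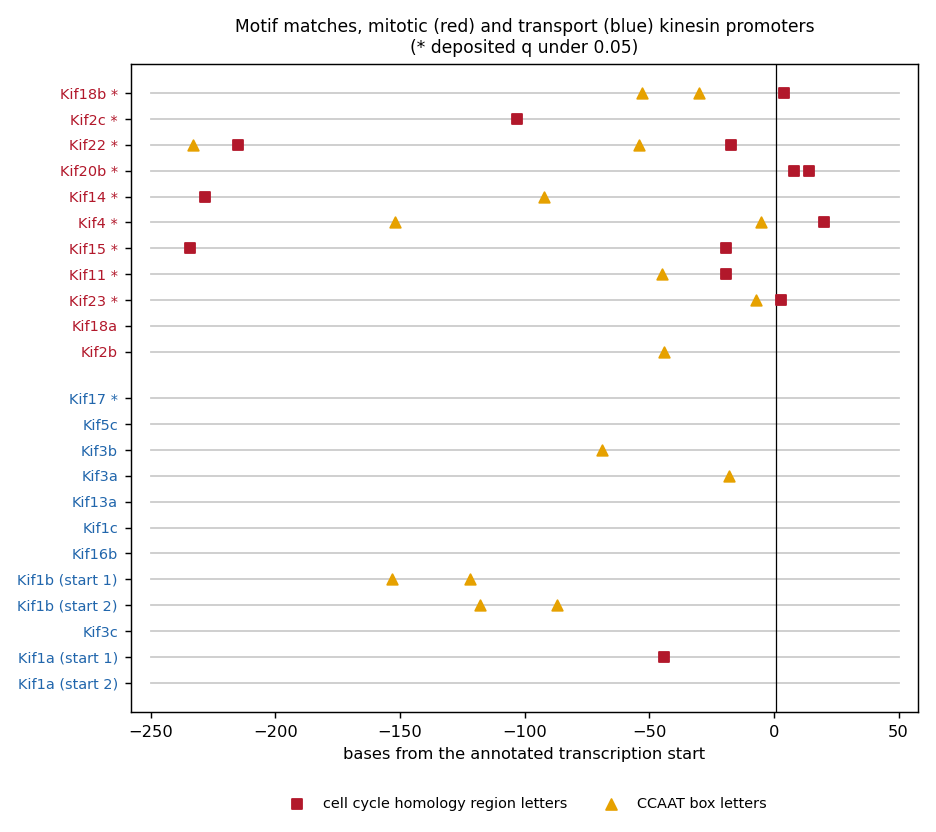
Positions of TTTGAA (squares) and CCAAT (triangles) matches on either strand, in bases from the annotated start, with 1 line per promoter entry of the mitotic (red labels) and transport (blue labels) kinesins and an asterisk at called genes. All 9 called mitotic kinesins carry a square, and among the transport kinesins 1 start of Kif1a does.

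These counts describe letters in a fixed window and were not tested between classes. Promoter entries matched 31 of the 38 members, and Kif5a, Kif5b, Kif13b, Kif19a, Kif20a, Kif21b and Kif4-ps had none.

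Mitotic kinesins were higher in tumours in the authors' deposited table. Of 11 tested members, 9 rose and none fell, at 3.72- to 10.2-fold, while Kif18a and Kif20a were not called. Over all tested genes, 6.26% were called in the deposited table, 3.07% higher and 3.19% lower. The median log2 fold change of the 11 was 2.84, beside -0.04 over all tested genes. All 11 estimates were above 0, as were 47.6% of those of all tested genes with a fold. Levels were low: the 9 called members lay between 1.25 and 9.76 FPKM in tumours and between 0.171 and 1.84 FPKM in normal tongue.

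Among the motors that act on spindle microtubules, Kif18b changed most. Kif18b, which trims astral microtubules, was listed at 4.16 FPKM in tumours and 0.408 FPKM in normal tongue in the authors' deposited table (log2 fold change 3.35 ± 0.67, q = 5.78e-05). Kif2c, the centromeric depolymerase MCAK that releases faulty chromosome attachments, stood at 5.36 FPKM in tumours and 0.607 FPKM in normal tongue (3.14 ± 0.64, deposited q = 0.000102). Kif11, the motor Eg5 that pushes the spindle poles apart, reached 6.73 FPKM in tumours, against 1.36 FPKM in normal tongue (2.31 ± 0.51, deposited q = 0.000555). Kif15, which backs up Kif11 in holding the spindle bipolar, had 3.13 FPKM in tumours and 0.589 FPKM in normal tongue (2.41 ± 0.59, deposited q = 0.00293). The paralog of Kif18b, Kif18a, which dampens chromosome movement at the metaphase plate, was listed at 1.64 FPKM in tumours and 0.50 FPKM in normal tongue and did not pass (1.71 ± 0.68, deposited q = 0.244). Its interval, 0.39 to 3.04, overlaps that of Kif18b, 2.05 to 4.65, and the difference between the paralogs was not tested. Kif2b, a further depolymerase of this group, was listed at 0 in both groups.

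The chromokinesins, which bind chromosome arms, were both called. Kif22, known as Kid, which pushes arms towards the spindle equator, was the most abundant mitotic kinesin in tumours at 9.76 FPKM, against 1.27 FPKM in normal tongue (2.94 ± 0.60, q = 0.000122 in the authors' deposited table). Kif4, which acts in chromosome condensation and in the spindle midzone, had 3.49 FPKM in tumours and 0.619 FPKM in normal tongue (2.50 ± 0.59, deposited q = 0.00178). Its pseudogene Kif4-ps, on chromosome 12 in the table, was listed at 1.19e-05 FPKM in tumours and 2.11e-06 FPKM in normal tongue and was not tested. How the authors divided reads between Kif4 and its copy is not given in the sources used here, so the level of Kif4 carries that uncertainty.

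Of the 4 kinesins of cytokinesis, 3 were called. Kif20b, needed for the final cut between daughter cells, was listed at 2.36 FPKM in tumours and 0.314 FPKM in normal tongue in the authors' deposited table (2.91 ± 0.64, q = 0.000457). Kif14, which recruits citron kinase to the midbody, was the least abundant called mitotic member, at 1.25 FPKM in tumours and 0.171 FPKM in normal tongue (2.88 ± 0.65, deposited q = 0.000942). Kif23, the motor subunit of centralspindlin, had the highest normal level of the class, with 6.84 FPKM in tumours and 1.84 FPKM in normal tongue (1.89 ± 0.51, deposited q = 0.0123). Kif23 was the called member closest to the threshold, and a stricter q under 0.01 drops it. Kif20a, which brings the chromosomal passenger complex to the midzone, was listed at 6.14 FPKM in tumours and 0.858 FPKM in normal tongue, a 7.16-fold difference that did not pass (2.84 ± 1.80, deposited q = 0.892). Its locus on chromosome 18, 34758269 to 34811390 in the table, also holds Brd8 and Cdc23. Its standard error was the largest of all 33 tested members, beside a range of 0.51 to 0.68 over the other 10 tested mitotic kinesins.

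**Figure D2:**
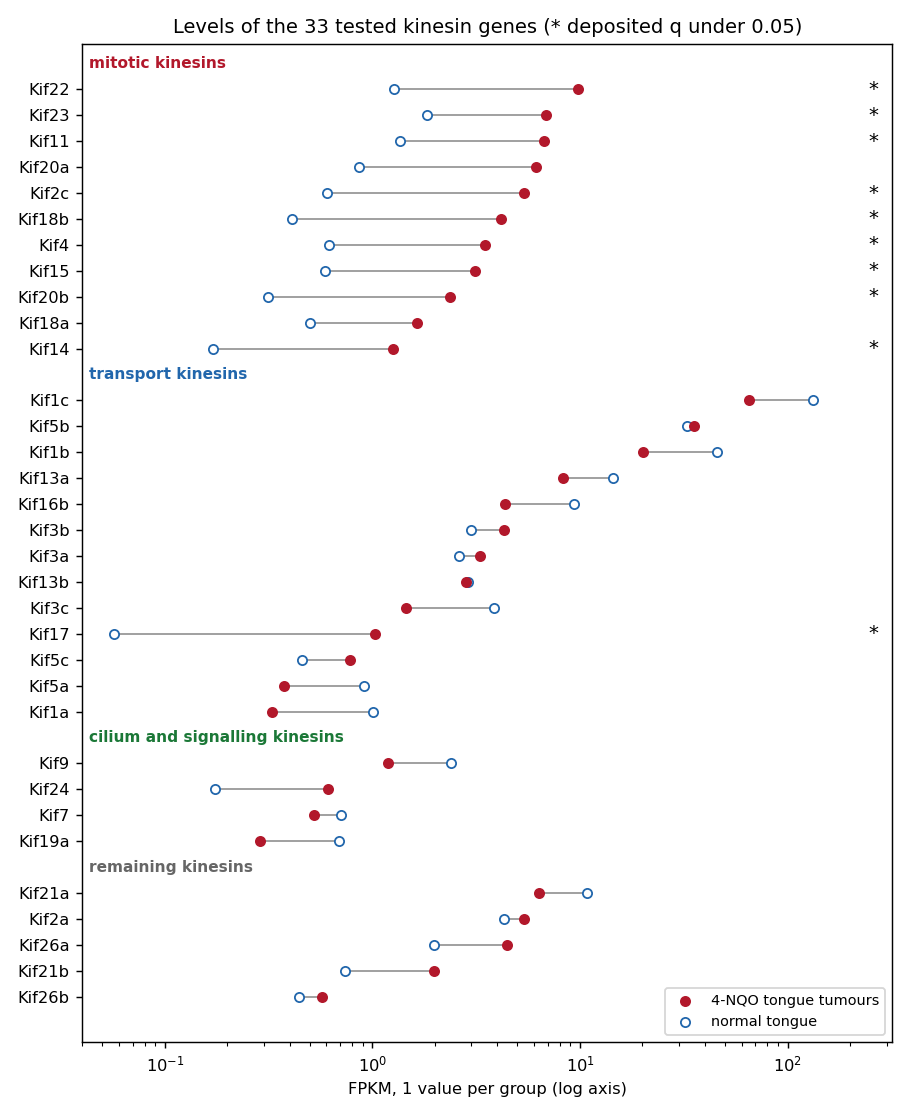
FPKM of the 33 tested kinesin genes on a log axis, with filled points for 4-NQO tumours, open points for normal tongue (1 value per group, so no error bar) and asterisks at called genes. The mitotic kinesins all lie farther right in tumours, while the abundant transport kinesins Kif1c and Kif1b lie farther left.

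Genes that work with the mitotic kinesins were also higher in tumours. In the authors' deposited table, 9 of 10 partners rose and none fell, beside 3.07% higher and 3.19% lower over all tested genes. The median log2 fold change of the partners was 2.50. The largest changes were those of the chromosomal passengers Birc5, or survivin (3.32 ± 0.66), and Aurkb, the kinase that it helps to place (2.74 ± 0.61). The centralspindlin partner of Kif23, Racgap1, also rose (1.77 ± 0.54, deposited q = 0.0446), as did Prc1, the midzone bundler that binds Kif4 (2.71 ± 0.51). Cit, the citron kinase bound by Kif14, was listed at 1.07 FPKM in tumours and 0.239 FPKM in normal tongue and was the 1 partner not called (2.16 ± 0.67, deposited q = 0.0511).

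Kinesins that carry other names include further motors of division. In the authors' deposited table, 3 of 5 rose, and none fell, beside 3.07% higher and 3.19% lower over all tested genes. Kifc1, a minus-end motor that focuses spindle poles, had 9.29 FPKM in tumours and 1.17 FPKM in normal tongue (2.99 ± 0.60, q = 6.32e-05), and the kinetochore motor Cenpe had 3.19 FPKM in tumours and 0.571 FPKM in normal tongue (2.48 ± 0.54, deposited q = 0.000423). Kifc5b, a near copy of Kifc1 that may share its reads, was the third. The other minus-end motors of the list, Kifc2 (-0.65 ± 0.55) and Kifc3 (-0.44 ± 0.50), were not called.

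Markers of dividing cells moved with the mitotic kinesins. In the authors' deposited table, 5 of 7 rose and none fell, beside 3.07% higher and 3.19% lower over all tested genes. Ccnb1, the mitotic cyclin, and Top2a, the topoisomerase of chromosome condensation, had the largest log2 fold changes, 3.11 ± 0.54 and 2.97 ± 0.54. Mki67, the gene of the Ki-67 antigen, was listed at 15.1 FPKM in tumours and 2.37 FPKM in normal tongue (2.68 ± 0.53). On the log2 scale the called mitotic kinesins ran from 0.78 below Mki67 (Kif23) to 0.67 above it (Kif18b), 5 above and 4 below. Among the genes of this list that act in DNA replication, Mcm5 rose (2.32 ± 0.51), while Pcna and Mcm2 were not called (0.78 ± 0.44 and 1.33 ± 0.49). In bulk tissue, more dividing cells and more RNA per dividing cell cannot be told apart. Of 5 tested keratinocyte markers, all had positive fold changes, as had 47.6% of all tested genes with a fold. Of the 5, Dsg3 alone was called, as higher (2.57 ± 0.75). Summed over these 5 genes the level was 3502 FPKM in tumours and 939.7 FPKM in normal tongue. Krt14, which carries the status HIDATA and was not tested, is left out, and its listed 0 in tumours is not taken as a level. Most of that sum was Krt5, at 3201 FPKM in tumours and 843 FPKM in normal tongue (1.93 ± 2.38, not called). The part of these markers in the kinesin differences was not tested.

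Transport kinesins summed to more than mitotic kinesins and, apart from Kif17, none was called in the authors' deposited table. Of 13 tested members, 1 rose and none fell, beside the 6.26% called over all tested genes. In 3 members the unadjusted p was under 0.05 with a lower level in tumours, as in 1967 of all 15783 tested genes. The median log2 fold change was -0.79, with 8 of 13 estimates below 0, as were 52.4% of those of all tested genes with a fold. Kif1c, Kif1b and Kif5b led the class and made up 54.9% of summed kinesin FPKM in tumours and 75.3% in normal tongue. The summed level of transport kinesins was 147.78 FPKM in tumours and 249.96 FPKM in normal tongue, while that of the mitotic kinesins was 50.9 FPKM in tumours and 8.54 FPKM in normal tongue. The summed transport kinesins thus exceeded the summed mitotic kinesins 2.91-fold in tumours and 29.3-fold in normal tongue, and mitotic kinesins held 23.1% of the family's FPKM in tumours and 3.04% in normal tongue. The excess in tumours rested on Kif1c, Kif1b and Kif5b: the other 10 transport kinesins summed to 27.0 FPKM in tumours and 38.5 FPKM in normal tongue. The median tested member stood at 3.28 FPKM in tumours and 3.001 FPKM in normal tongue among transport kinesins, and at 4.16 FPKM in tumours and 0.607 FPKM in normal tongue among mitotic kinesins.

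**Figure D3:**
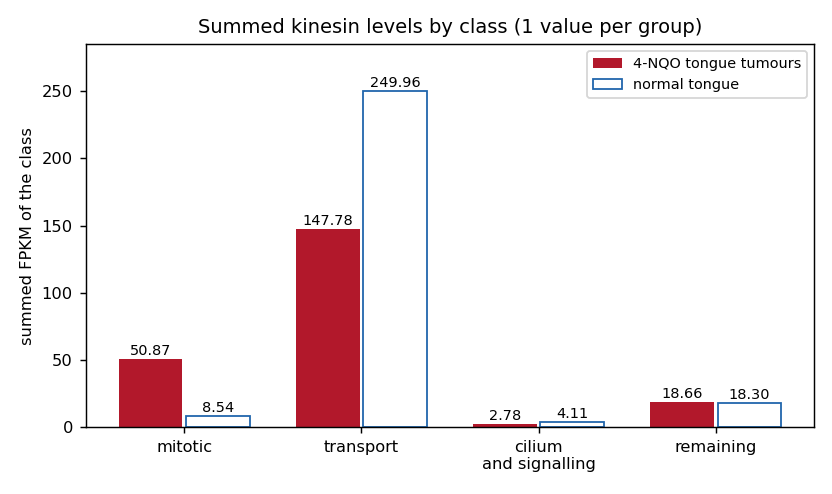
Summed FPKM of the members of each kinesin class in 4-NQO tumours (filled bars) and normal tongue (open bars), with the value above each bar and no error, since the table gives 1 value per group. The mitotic sum is 50.9 in tumours and 8.54 in normal tongue, and the transport sum 147.78 in tumours and 249.96 in normal tongue.

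Among the transport motors of widespread expression, Kif1c, Kif1b, Kif16b and Kif13a had negative estimates, and Kif5b and Kif13b had estimates near 0. Kif3a and Kif3b, given further below, had positive estimates, and none of these motors passed the test. Kif1c, a motor of Golgi and adhesion-site traffic, was the most abundant kinesin in both groups, at 65.4 FPKM in tumours and 133 FPKM in normal tongue (-1.03 ± 0.66, q = 0.898 in the authors' deposited table). Kif1b, which carries mitochondria and synaptic vesicle precursors, had 20.04 FPKM in tumours and 45.6 FPKM in normal tongue (-1.18 ± 0.63, deposited q = 0.661). Kif5b, the ubiquitous heavy chain of conventional kinesin, was listed at 35.4 FPKM in tumours and 32.6 FPKM in normal tongue (0.12 ± 0.53, deposited q = 1.00). It made up 96.8% of the summed heavy chains Kif5a, Kif5b and Kif5c in tumours and 96.0% in normal tongue. The endosome motor Kif16b had 4.33 FPKM in tumours and 9.32 FPKM in normal tongue (-1.11 ± 0.43, deposited q = 0.225). Kif13a, which carries recycling endosome cargo, had 8.29 FPKM in tumours and 14.4 FPKM in normal tongue (-0.79 ± 0.44, deposited q = 0.714), while its paralog Kif13b was listed at 2.82 FPKM in tumours and 2.89 FPKM in normal tongue (-0.04 ± 0.49).

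The motors best known from neurons had low levels. Kif1a, the carrier of synaptic vesicle precursors, was listed at 0.328 FPKM in tumours and 1.01 FPKM in normal tongue in the authors' deposited table (-1.62 ± 0.62, q = 0.214), the lowest fold change of the family. The neuronal heavy chain Kif5a had 0.375 FPKM in tumours and 0.915 FPKM in normal tongue (-1.29 ± 0.80, deposited q = 0.872), and the other neuronal heavy chain, Kif5c, had 0.784 FPKM in tumours and 0.459 FPKM in normal tongue (0.77 ± 0.63, deposited q = 1.00). Kif3c, a partner of Kif3a enriched in neurons, was listed at 1.45 FPKM in tumours and 3.85 FPKM in normal tongue (-1.41 ± 0.54, deposited q = 0.222), at a locus it shares with 1110002L01Rik. Kif3a and Kif3b, the more widespread motor pair of intraflagellar transport, had positive estimates. Kif3a stood at 3.28 FPKM in tumours and 2.63 FPKM in normal tongue (0.32 ± 0.46), and Kif3b at 4.30 FPKM in tumours and 3.001 FPKM in normal tongue (0.52 ± 0.45). Kif3c made up 16.1% of the summed Kif3 levels in tumours and 40.6% in normal tongue.

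Nerve and muscle markers moved beside these values. Of 7 tested nerve and Schwann cell markers in the authors' deposited table, 5 had negative fold changes. In the same list Tubb3 and Nefl, genes of the neuronal cytoskeleton, rose (1.71 ± 0.47 and 4.39 ± 1.13), and its summed level was 85.3 FPKM in tumours and 151 FPKM in normal tongue. All 5 tested skeletal muscle markers had negative fold changes, and Myh2 and Myot fell (-3.65 ± 0.67 and -1.91 ± 0.54). Summed over these 5 genes the level was 5109 FPKM in tumours and 14059 FPKM in normal tongue. Acta1 and Ckm, which carry the status HIDATA and were not tested, are left out, and their listed 0 in normal tongue is not taken as a level. Most of that sum came from Tnnc2 (-1.31 ± 1.57) and Mb (-1.52 ± 2.41), neither of which was called. Of the fibroblast and endothelial markers, Lum (-1.70 ± 0.46) and Cdh5 (-1.47 ± 0.43) fell among 5 and 3 tested. Over all tested genes, 3.07% were called higher and 3.19% lower, and 52.4% of those with a fold had negative fold changes. Whether fewer muscle or nerve cells contribute to the lower transport kinesin estimates was not tested.

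Kif17 was the exception among transport kinesins. This motor, which acts alone in dendrites and in some cilia, was listed at 1.02 FPKM in tumours and 0.0570 FPKM in normal tongue in the authors' deposited table, a 17.98-fold difference (4.17 ± 1.03, q = 0.00349). That is the largest fold change of the family, from the lowest normal level among tested members, and its standard error exceeds those of all other tested transport kinesins. With a pseudocount of 1 FPKM its log2 difference is 0.94. The table places Kif17 at chromosome 4, 137818166 to 137857888, with no overlapping gene.

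**Figure D4:**
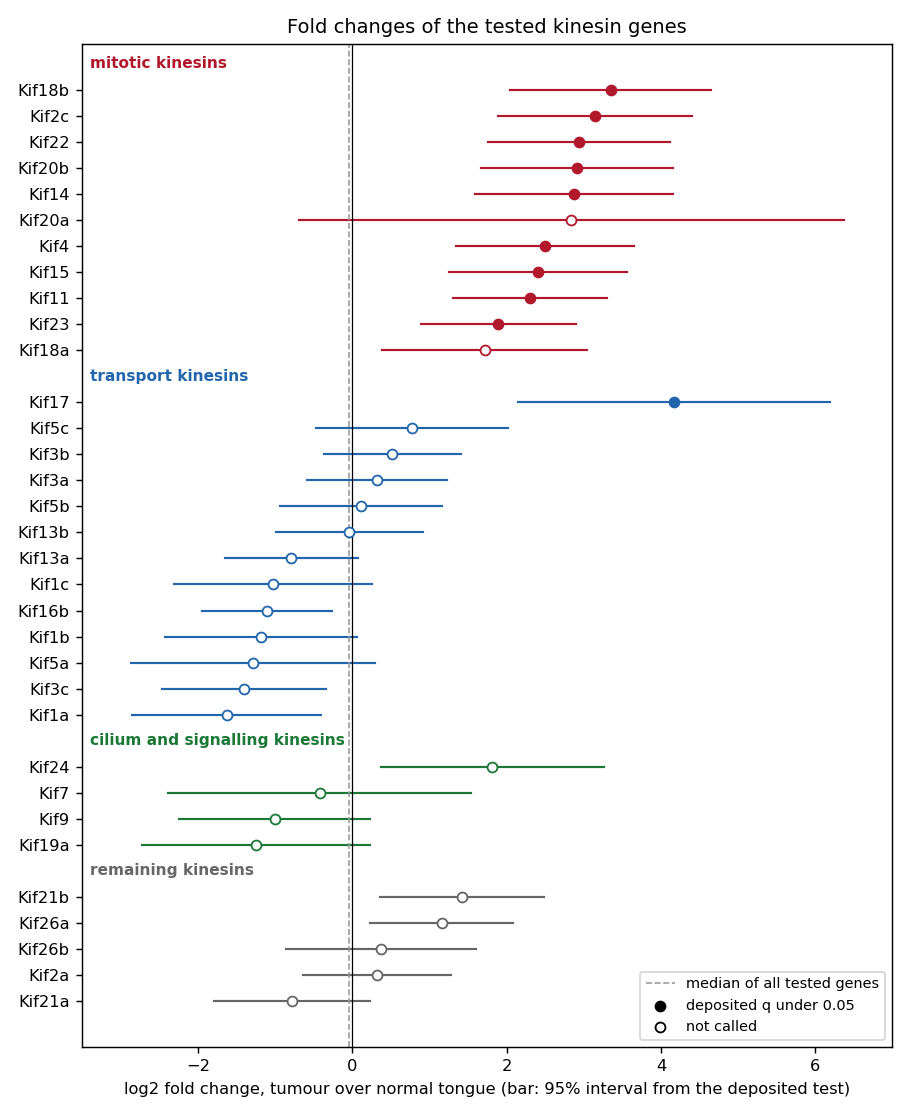
Log2 fold change of tumour over normal tongue for the 33 tested kinesins, with 95% intervals from the deposited test statistic, filled points for called genes and a dashed line at the median of all tested genes, -0.04. The called mitotic members lie between 1.89 and 3.35, and of the transport kinesins Kif17 alone has an interval wholly above 0.

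In 3 of the 12 transport kinesins that were not called, Kif1a, Kif3c and Kif16b, the 95% interval lay wholly below 0, and in the other 9 it held 0. A change of 1.38 to 2.59 on the log2 scale, depending on the gene, would have been needed for these 12 to be called in the authors' deposited table, so a 2-fold difference was below that limit for each of them. No member lay near the threshold: the absolute test statistic was 3.68 for Kif23 and 2.61 for the next, Kif21b, and the smallest of any called gene was 3.22. The difference between the classes was not tested.

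The cargo machinery of the transport kinesins showed no calls. Of 9 tested light chains and adaptors none was called in the authors' deposited table, beside 6.26% of all tested genes. That share leaves few calls in lists this short. Of the 9, 4 had an unadjusted p under 0.05 with a lower level in tumours, as had 1967 of all 15783 tested genes. The fold change was negative in 7 of the 9, beside 52.4% of all tested genes with a fold. The median of the 9 was -0.84. The mitochondrial adaptors Trak2 (-1.18 ± 0.43) and Trak1 (-1.16 ± 0.45) had the lowest estimates, and Klc1, a light chain of conventional kinesin, had 39.5 FPKM in tumours and 37.5 FPKM in normal tongue (0.07 ± 0.52). Cytoplasmic dynein and dynactin, which carry cargo inwards along microtubules, also had no call among 13 tested genes, 1 unadjusted p under 0.05 and a median of 0.03. The dynein heavy chain Dync1h1 was listed at 18.3 FPKM in tumours and 17.95 FPKM in normal tongue (0.02 ± 0.55).

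**Figure D5:**
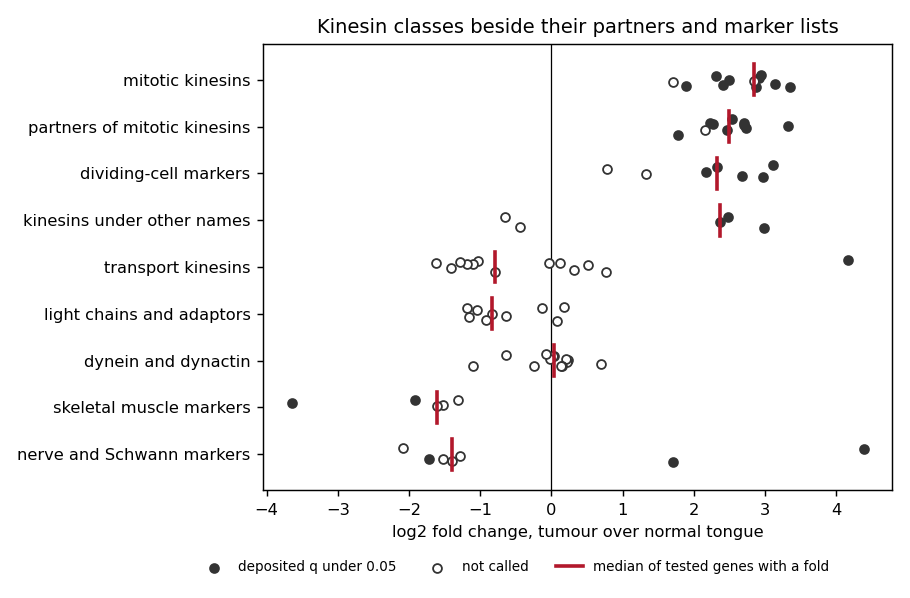
Log2 fold changes of tested genes in the kinesin classes and in the lists described beside them, with filled points for called genes and a red bar at each list's median. The mitotic kinesins, their partners and the dividing-cell markers have medians of 2.84, 2.50 and 2.32, and the transport kinesins, light chains and adaptors, and dynein with dynactin have medians of -0.79, -0.84 and 0.03.

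Kinesins of the cilium and of ciliary signalling lay at 2.40 FPKM or less in both groups. None of the 4 tested was called in the authors' deposited table, beside 6.26% of all tested genes. Of the 4, Kif24 alone had an unadjusted p under 0.05, with a higher level in tumours, as had 1297 of all 15783 tested genes. Kif24, a depolymerase that restrains cilium formation, had 0.613 FPKM in tumours and 0.174 FPKM in normal tongue (1.82 ± 0.74, q = 0.275), the largest change of this group. Kif19a, which sets the length of motile cilia, had the lowest, at 0.289 FPKM in tumours and 0.687 FPKM in normal tongue (-1.25 ± 0.75, deposited q = 0.821). Kif9, found in motile cilia, was listed at 1.195 FPKM in tumours and 2.40 FPKM in normal tongue (-1.01 ± 0.63). Kif7, a regulator of Hedgehog signalling at the cilium tip, had 0.525 FPKM in tumours and 0.704 FPKM in normal tongue (-0.42 ± 1.003), at a locus shared with 5730590G19Rik. Kif6, Kif12 and Kif27 were not tested and lay at 0.0618 FPKM or less in tumours and 0.0802 FPKM or less in normal tongue. The ciliated-cell regulator Foxj1 also carried the status NOTEST, at 0.0117 FPKM in tumours and 0.0220 FPKM in normal tongue.

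None of the remaining 5 tested kinesins was called in the authors' deposited table, beside 6.26% of all tested genes. Among them 2, Kif21b and Kif26a, had an unadjusted p under 0.05 with a higher level in tumours, as had 1297 of all 15783 tested genes. Kif21b, a regulator of microtubule growth in neurons and lymphocytes, came closest, at 1.98 FPKM in tumours and 0.741 FPKM in normal tongue in the authors' deposited table (1.42 ± 0.54, q = 0.210). Of 5 leukocyte markers in the table, the T-cell receptor chain Cd3g alone was called, as higher (3.74 ± 0.97). Fold changes were negative in 3 of the 5, beside 52.4% of all tested genes with a fold, the lowest that of Cd79a (-2.45 ± 1.11). The 5 markers had a summed level of 87.4 FPKM in tumours and 140 FPKM in normal tongue, and their part in the Kif21b value was not tested. Its paralog Kif21a had 6.31 FPKM in tumours and 10.8 FPKM in normal tongue (-0.78 ± 0.51, deposited q = 0.938). Kif26a, a kinesin without motor activity that acts in signalling of enteric neurons, was listed at 4.45 FPKM in tumours and 1.99 FPKM in normal tongue (1.16 ± 0.47, deposited q = 0.281), and its relative Kif26b at 0.573 FPKM in tumours and 0.442 FPKM in normal tongue (0.37 ± 0.63). Kif2a, a depolymerase of spindle poles and of axons, had 5.35 FPKM in tumours and 4.29 FPKM in normal tongue (0.32 ± 0.49), beside the 8.84-fold difference of its mitotic relative Kif2c.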

How the data were processed

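The file analysed is the authors' deposited comparison of 3 4-NQO tumours with 5 normal tongues: 1 FPKM value per gene and group, a log2 fold change, a test statistic, a p-value and a q-value. The header does not name the unit, which was read from the layout of the deposited table as FPKM. Per the submitters' processing notes, GSNAP 2011.11.17, edgeR and the human build GRCh37 were named with no role. Neither the program that made the table nor its mouse genome build is stated in the sources used here. Only 1.01% of 20601 genes compared had the start that GRCm38.p6 gives, so loci are the table's own, counted from 1. The library protocol in the labels does not mention strand, so overlapping genes cannot be told apart.

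No test between groups was possible beyond the authors' own. Of 15783 rows of status OK (tested), those with a deposited q-value under 0.05 were called, which matches the authors' 988 calls. The deposited test statistic is a score whose sign is opposite to the fold change in 100% of these rows. The standard error is the absolute fold change divided by it, and 95% intervals assume a normal error. This derivation was run on simulated data drawn with normal errors, which checks the arithmetic and not the errors of the deposited values. Depth per sample is unknown. Members, classes and gene lists were chosen with earlier results of these data known, so no class or list was tested as such. Every member is named. Of each other list, up to 2 called genes in each direction are named by size of change, and further genes where they bear on a member, the latter chosen after their values were seen. The values of 1 nerve marker are not reported here. Promoter letters were searched in RefSeq windows. Python 3.11.15, pandas 2.3.3 and scipy 1.17.1 were used.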

Additional observations from a re-analysis of the deposited data

How the results depend on the processing

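The counts of called kinesins (10 in all, 9 mitotic, 1 transport, 0 of the other classes) kept their direction and stayed within 1.5 times under a deposited q under 0.10, a Benjamini-Hochberg adjustment of the deposited p-values over all tested rows, a minimum of 1 FPKM in the higher group and, added after seeing the data, leaving out members whose locus overlaps another gene. A deposited q under 0.01 leaves 9 in all and 8 mitotic. For the other classes, an unadjusted p under 0.05 was found in 3 of 9 tested members, Kif24, Kif21b and Kif26a, all higher in tumours. The same held for 1297 of all 15783 tested genes. The mitotic median log2 fold change of 2.84 became 1.47 with a pseudocount of 1 FPKM, which shrinks the ratios of genes at such levels by construction, and lay between 2.32 and 2.89 under the other alternatives. Without Kif20a, whose locus overlaps other genes, it was 2.69. Kif2a, which also acts at spindle poles and was not called, had been placed outside the mitotic class. With Kif2a counted as mitotic, the mitotic median was 2.67, and the number of mitotic calls stayed at 9. The transport median of -0.79 lay between -0.91 and -0.41 and stayed below 0, at -0.48 with a pseudocount of 1 FPKM, at -0.91 without Kif17 and at -0.41 without Kif3c, whose locus overlaps another gene. The last pair were added after seeing the data.

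No paired analysis was possible because the deposited table holds no value per sample, and leaving out each sample in turn was not run for want of such values. The protein motif planned for display is not used here. Depth is unknown, and 6 of the 9 called mitotic kinesins, with Kif17, lay under 1 FPKM in normal tongue.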

Other observations

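Some kinesin genes share a chromosome in the deposited table, at differing distances. On chromosome 1, Kif14 begins 289944 bases after the end of Kif21b, with log2 fold changes of 2.88 ± 0.65 and 1.42 ± 0.54, of which that of Kif14 was called. On chromosome 19, Kif11 begins 2400672 bases after the end of Kif20b, and both were called.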
